A study of Mus musculus with 6 samples.

Results

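Translation initiation and elongation factors, the proteins that load messenger RNA and the initiator tRNA onto the ribosome and then drive the ribosome along the message, were followed across cultures of mouse CD4+ T cells. They were taken as the genes with a symbol that starts with Eif or Eef and a digit, among probe sets given a single gene symbol in the platform annotation. Where a gene had several such probe sets, the one with the highest mean log2 intensity over all arrays stood for it. This gave 52 genes, covered by 108 probe sets, among 17097 genes measured.

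CD4+CD25- T cells from female C57BL/6 mice were cultured for 4 days in coated wells, and each coating was run as duplicate cultures with 1 array each. Wells of the anti-CD3 group carried antibody to CD3 (2 µg/ml in the coating solution), which triggers the T cell receptor complex, together with a control IgG. Wells of the B7-2 group carried the same antibody, rB7-2.Fc (3 µg/ml), a costimulatory ligand of CD28, and the control IgG, and wells of the BTNL2 group carried the antibody, rB7-2.Fc and rBTNL2.Fc (11 µg/ml), a butyrophilin-like protein described as an inhibitor of T cell activation. TGF-beta (0.36 ng/ml) and IL-2 (10 ng/ml) were in the medium of every group. The labels name spleen in the protocol, and spleen and lymph nodes as the source, and give no mouse age and no statement that duplicates came from separate mice. Error terms and p-values thus reflect the scatter of these duplicate cultures alone, which may be technical.

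Initiation starts when eIF2, carrying GTP and the initiator tRNA, joins the small ribosomal subunit with eIF1, eIF1A, eIF3 and eIF5, and the eIF4 factors bring in the capped message. Stress kinases phosphorylate eIF2, which then blocks its own exchange factor eIF2B, and the eIF4E-binding proteins hold back the cap-binding protein eIF4E until mTOR phosphorylates them. Resting T cells make little protein, and activation through the receptor and CD28 is known to raise translation through mTOR and Myc.

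The arrays were alike in overall signal, with median intensities of 18.45 to 18.77, and duplicate arrays correlated at 0.997 to 0.998 over all genes. The 3′ to 5′ ratio of the Actb control probe sets ran from 1.67 to 1.92, and that of Gapdh from 1.27 to 1.43. The 18S ribosomal RNA control probe set read 1308 and 683 with anti-CD3, 2019 and 1821 with B7-2, and 1665 and 1798 with BTNL2. Nonspecific controls had a median signal of 4.49 on the first B7-2 array and of 3.68 to 3.94 on the others. The intensities of 7 CD8 T and NK cell markers were summed. The sum was 597 and 636 with anti-CD3, 277 and 265.5 with B7-2, and 2835 and 2428 with BTNL2. Most of the BTNL2 sum came from Eomes (1337 and 991) and Cd8a (987 and 924), which read 21.1 and 17.7, and 302 and 321, with anti-CD3. The NK receptor gene Ncr1 was below 10 on every array. Of the 7, 4 were called lower with B7-2. With BTNL2, 5 were called higher against B7-2 and 4 against anti-CD3. Of 8 listed B cell markers 7 were measured, with the B lineage factor Pax5 below 10. Their sum was 891 to 951 with anti-CD3, 523 to 558 with B7-2 and 752 to 978 with BTNL2. They did not move alike: Ms4a1 averaged 130, 96.6 and 332 in that order, and Ebf1 146, 150 and 55.55. With B7-2, 4 were called lower. BTNL2 gave 3 higher and 1 lower against B7-2, and 1 higher and 3 lower against anti-CD3. The 4 CD4 T cell markers measured of 6 listed, Cd3e, Cd3d, Cd4 and Cd28, were bright on all arrays. Their sums were 12317 to 12852 with anti-CD3, 9611 to 10010 with B7-2 and 9585 to 9872 with BTNL2. Cd28 averaged 1606, 1011 and 601 in that order. Of the 4, 2 were called lower with B7-2, 1 with BTNL2 against B7-2 and 2 with BTNL2 against anti-CD3. None of the 7 myeloid markers, nor of the 2 erythroid markers measured of 4 listed, was called in any comparison. The part of these control and marker differences in the results on translation factors was not tested. In such bulk RNA, fewer cells of a type and less RNA per cell cannot be told apart.

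Adding B7-2 to anti-CD3 went with higher levels of factors in many steps of initiation. The rises were largest in Eef1e1, an auxiliary protein of the aminoacyl-tRNA synthetase complex (2.27-fold), Eif2b1, the alpha subunit of eIF2B (1.62-fold), and Eif1a, a scanning factor (1.47-fold). Of the 52 factors, 14 were higher and 2 lower at an adjusted p under 0.05 (limma over all genes, Benjamini-Hochberg), which is 30.8%. Over all genes the test called 24.5%, with 11.2% higher and 13.3% lower, against 26.9% and 3.85% of the factors. The median log2 change was 0.13 for the factors and -0.0048 for all genes. With dim genes (mean log2 intensity under 3.633) left out, 17 of 51 factors were called, 15 of them higher. That is 33.3%, beside 38.8% of the 11881 genes kept (4605 called, 2125 of them higher). With any 1 of the 4 arrays compared left out, fewer factors were called, and fewer of all genes.

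Adding BTNL2 to anti-CD3 and B7-2 changed 5 of the 52 factors past the threshold. Eif4ebp1, an inhibitor of cap-dependent initiation, fell 3.66-fold, and Eif4e and the kinase gene Eif2ak4 were also lower. The kinase gene Eif2ak2 and Eif4e3, a cap-binding relative of eIF4E, were higher. These 2 higher and 3 lower factors are 9.62% of the 52, beside 20.4% of all genes called, 9.52% higher and 10.8% lower. The median log2 change was -0.07 for the factors and -0.0114 for all genes. An unadjusted p under 0.05 (limma) was found for 14 of the 52 factors, beside 5534 of the 17097 genes. When the variance prior of the fit was let vary with intensity, 15 factors were called (28.8%), beside 25.8% of all genes. Leaving out any 1 of the 4 arrays compared lowered the number of factors called, and that of all genes.

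With BTNL2, B7-2 and anti-CD3 together, against anti-CD3 alone, 12 factors were higher and 3 lower. Eef1e1 (2.25-fold), the methyltransferase gene Eef1akmt1 (1.54-fold) and Eif2b5 (1.47-fold) were higher by the most, and Eif4ebp1 (2.89-fold), Eif3f (1.34-fold) and Eif1b (1.25-fold) were lower. The 15 are 28.8% of the factors, beside 30.4% of all genes called, 14.2% higher and 16.2% lower. The median log2 change was 0.05 for the factors and -0.0046 for all genes. Leaving out the first anti-CD3 array left 7 factors called, and leaving out the first BTNL2 array left 9. The 3 comparisons share groups of arrays, so they are given side by side and are not independent of each other.

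**Figure D1:**
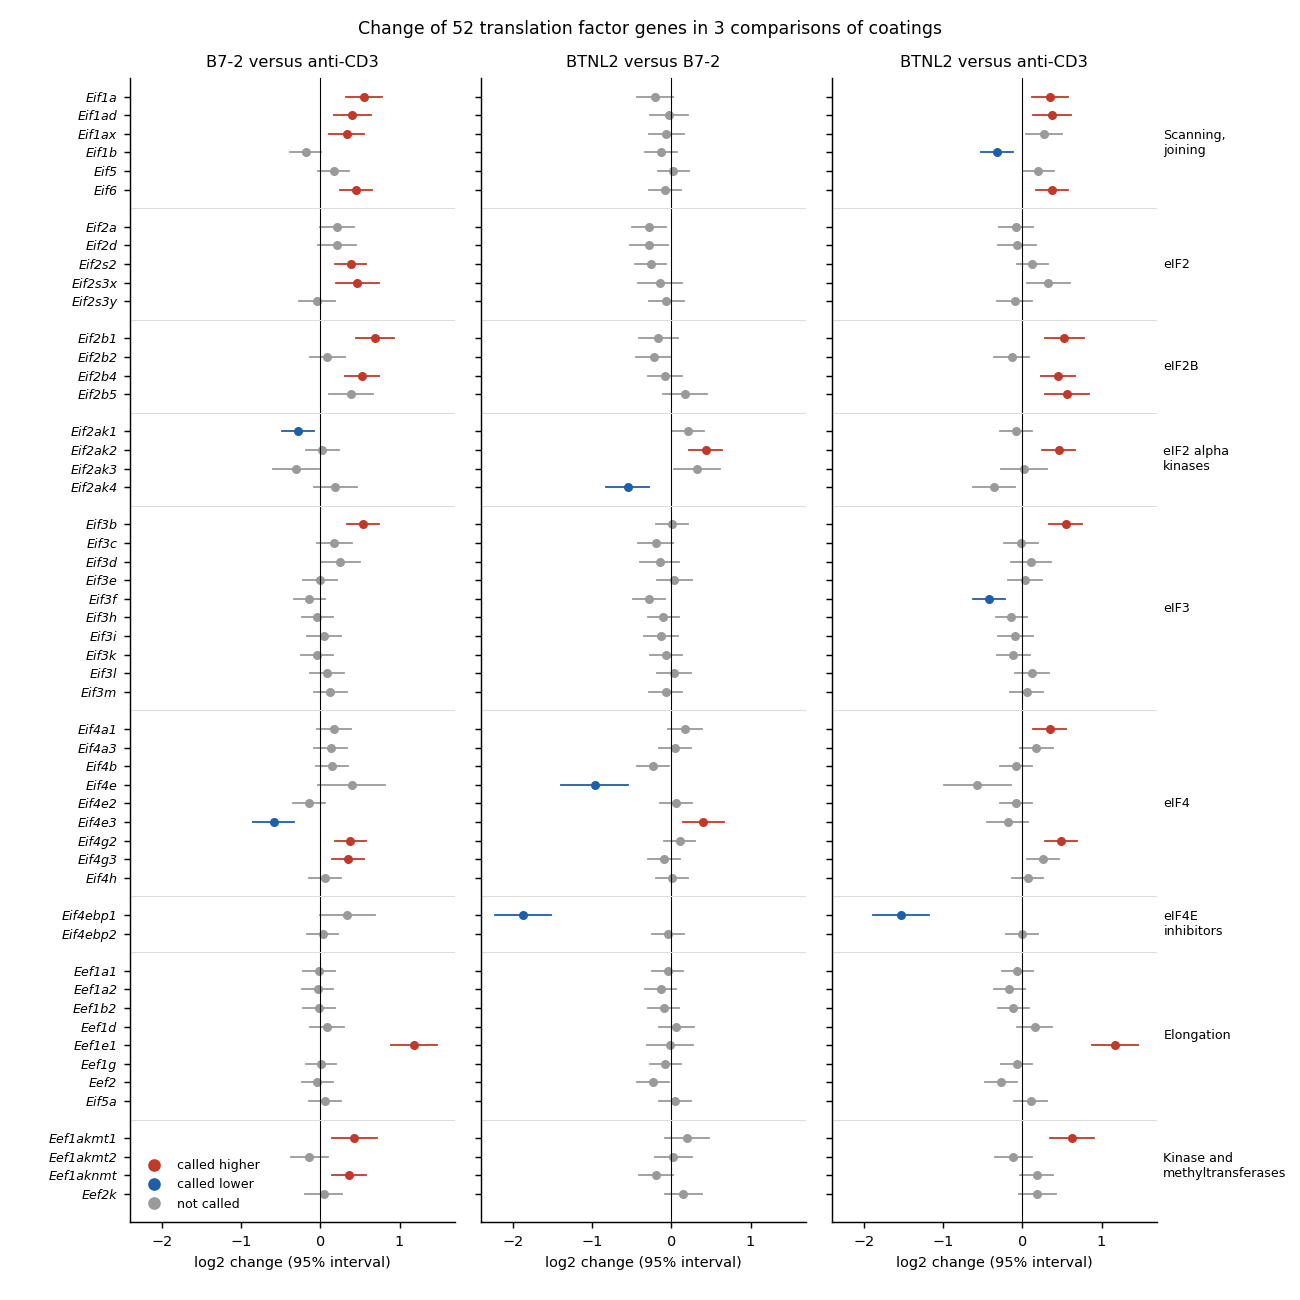
Log2 change of each of the 52 factors in the 3 comparisons, grouped by role, with points in red or blue for factors called higher or lower at an adjusted p under 0.05, grey points for the rest, and bars for the 95% interval. Eef1e1 stands at 1.18 and 1.17 against anti-CD3 with B7-2 and with BTNL2, and Eif4ebp1 at -1.87 for BTNL2 against B7-2.

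Changes were small for most factors. The highest array was at least 2 times the lowest for 3 of the 52, Eef1e1, Eif4ebp1 and Eif4e, and at least 1.5 times for 12, with a median of 1.29 times. Duplicates were closer, and the largest ratio within a pair of duplicates had a median of 1.08 over the factors.

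Among the inhibitors of eIF4E, Eif4ebp1 had by far the lowest signal in the BTNL2 cultures. Its probe set read 595 and 558 with anti-CD3, 703 and 757 with B7-2, and 172 and 232 with BTNL2. Both BTNL2 arrays lay below all the others, and both B7-2 arrays lay above both anti-CD3 arrays. The log2 change was -1.87 ± 0.15 (SE, n = 2) for BTNL2 against B7-2 (adjusted p = 0.000215, limma) and -1.53 ± 0.15 against anti-CD3 (adjusted p = 0.000353, limma). B7-2 against anti-CD3 gave 0.34 ± 0.15, which did not pass (adjusted p = 0.149, limma). The fall against B7-2 held in every alternative fit, with log2 changes from -2.09 to -1.16, the smallest when both probe sets of the gene were averaged. The second, dim probe set had a mean intensity of 25.2 and a log2 change of -0.45 for BTNL2 against B7-2, which did not pass when each probe set was tested alone (adjusted p = 0.0502, limma). Eif4ebp2, the other inhibitor measured here, read 1324 and 1267 with anti-CD3, 1297 and 1347 with B7-2, and 1292 and 1287 with BTNL2. Its arrays were within a narrow band, and the 95% interval of its log2 change for BTNL2 against B7-2 was -0.24 to 0.17. Tested alone, a dimmer probe set of Eif4ebp2 (mean 348) was called lower there (-0.42, adjusted p = 0.0176, limma) and another (mean 199.5) higher with B7-2 (0.36, adjusted p = 0.0488, limma).

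**Figure D2:**
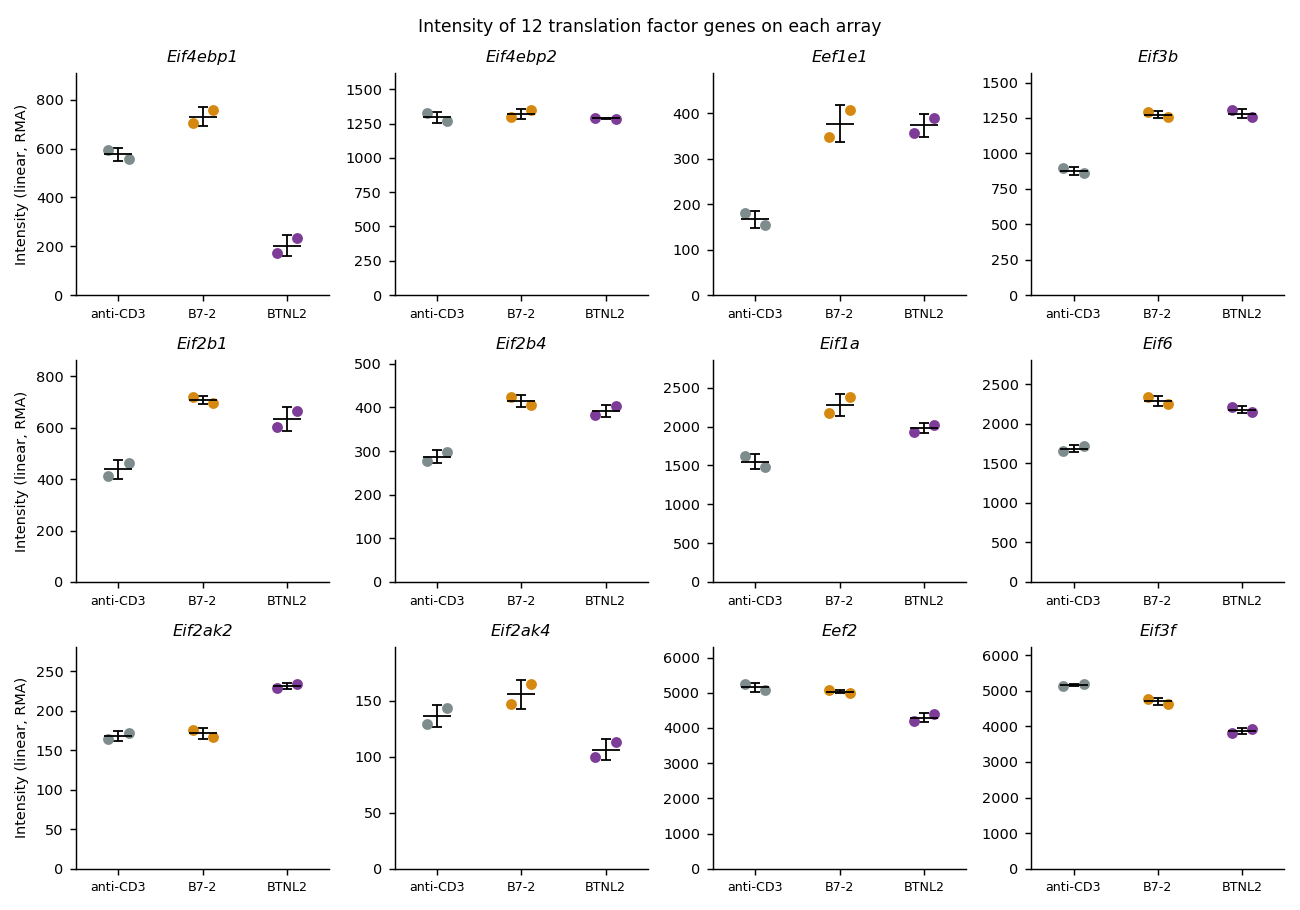
Intensity on each of the 6 arrays for 12 of the factors, by coating, with the mean and SD of each pair in black. Eif4ebp1 drops to 172 and 232 on the BTNL2 arrays, and Eef1e1 is at 179 and 153 with anti-CD3 and at 348 to 407 in the other groups.

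Of the 9 genes for cap binding and unwinding by the eIF4 factors, 2 rose and 1 fell with B7-2, and 1 rose and 1 fell when BTNL2 was added. That is 3 of 9 and 2 of 9 called, beside 24.5% and 20.4% of all genes, counts too small to set apart. Eif4e, the cap-binding protein itself, was measured by a single dim probe set that read 26.2 and 25.0 with anti-CD3, 32.2 and 35.2 with B7-2, and 14.1 and 21.1 with BTNL2. The BTNL2 arrays were the lowest, and the groups did not overlap. Against B7-2, BTNL2 gave a log2 change of -0.97 ± 0.18 (SE, n = 2), or 1.95-fold lower (adjusted p = 0.00961, limma). The call was lost without the second B7-2 array, at a log2 change of -0.90 and an adjusted p of 0.0512 (limma), within a range of 0.00112 to 0.0512 over the alternatives. Against anti-CD3 it was -0.57 ± 0.18, which missed the threshold (adjusted p = 0.051, limma). Eif4e3 read 92.7 and 93.0 with anti-CD3, 57.9 and 66.1 with B7-2, and 87.4 and 76.6 with BTNL2, so the B7-2 arrays were the lowest. It fell with B7-2 (-0.59 ± 0.11, adjusted p = 0.00846, limma) and was higher with BTNL2 than with B7-2 (0.40 ± 0.11, adjusted p = 0.0407, limma). Its second probe set, with a mean of 54.1, gave 0.07 and 0.31 for these comparisons and was called in neither. The fall was not called without the first B7-2 array (-0.49, adjusted p = 0.0512, limma) and the rise was called in 6 of 12 alternatives. It was lost without the first BTNL2 array or either B7-2 array (0.31 to 0.50), with only the 4 arrays compared, with the replicate number as a block, and with the probe sets averaged.

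Eif4g2, Eif4g3 and Eif4a1 were higher than with anti-CD3 in at least 1 comparison. Eif4g2, an eIF4G relative that works without cap binding, read 2399 and 2452 with anti-CD3, 3112 and 3205 with B7-2, and 3354 and 3445 with BTNL2. The anti-CD3 arrays lay below the rest, and the log2 change against them was 0.38 ± 0.08 with B7-2 (adjusted p = 0.0164, limma) and 0.49 ± 0.08 with BTNL2 (adjusted p = 0.0043, limma). Of its 5 probe sets, tested one by one, 2 were called higher with B7-2 and 3 with BTNL2, and the second brightest, at a mean of 2359, gave 0.01 and 0.05. Another, at a mean of 1529, was higher with BTNL2 than with B7-2 (0.43, adjusted p = 0.0281, limma). Eif4g3, a full-length eIF4G scaffold, rose with B7-2 (0.35 ± 0.08, adjusted p = 0.023, limma). Both B7-2 calls were lost when any 1 of the 4 arrays compared was left out, at log2 changes of 0.36 to 0.40 for Eif4g2 and 0.32 to 0.38 for Eif4g3.

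Eif4a1, the helicase that unwinds the leader of a message, read 4092 and 4124 with anti-CD3, 4839 and 4428 with B7-2, and 5188 and 5246 with BTNL2. The order of the groups was without overlap, and the difference between BTNL2 and anti-CD3 passed (0.35 ± 0.09, adjusted p = 0.0241, limma), though not when any 1 of those 4 arrays was left out (0.34 to 0.35). Its second probe set, at a mean of 1818, was called higher with B7-2 as well (0.50, adjusted p = 0.00925, limma, each probe set tested alone). Eif4a3, Eif4b, Eif4e2 and Eif4h were called in no comparison, with log2 changes between -0.23 and 0.18.

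Of the 5 genes for eIF2 and related factors, Eif2s2 and Eif2s3x, the beta and gamma subunits, were higher with B7-2, beside 11.2% of all genes. Both had a mean log2 intensity of 10 to 12, where 20.8% of genes were called higher, and the count is too small to set apart. None of the 5 was called in the other comparisons on the probe set used. Eif2s3x read 1213 and 1036 with anti-CD3, 1444 and 1668 with B7-2, and 1427 and 1390 with BTNL2. The anti-CD3 arrays were the lowest, and the log2 change with B7-2 was 0.47 ± 0.12 (SE, n = 2; adjusted p = 0.0261, limma). It was not called without the second anti-CD3 array (0.36) or without the second B7-2 array (0.37). Eif2s2 rose by 0.39 ± 0.08 (adjusted p = 0.0154, limma), a call lost with any 1 of those 4 arrays left out (0.36 to 0.41). With each probe set tested alone, the other 2 of Eif2s3x, at means of 387 and 1308, were called higher with B7-2 (0.72 and 0.51) and with BTNL2 against anti-CD3 (0.66, adjusted p = 0.00158, and 0.41, adjusted p = 0.0261, limma). The second probe set of Eif2s2, dim at a mean of 17.8, was likewise called in both (0.64 with B7-2, and 0.70 with BTNL2, adjusted p = 0.00494, limma). Eif2a and Eif2d, factors that can deliver tRNA by other routes, were not called, with log2 changes of -0.28 to 0.21. Eif2s3y, the gamma subunit gene on the Y chromosome, read 4.68 to 5.46 on the 6 arrays, beside maxima of 5.02 to 5.99 for the nonspecific control probe sets, in cells labelled female.

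Of the 4 measured genes of eIF2B, the exchange factor that reloads eIF2 with GTP, Eif2b1 and Eif2b4 rose with B7-2, beside 11.2% of all genes. Both had a mean log2 intensity of 6 to 10, where 21% of genes were called higher, and the count is too small to set apart. Eif2b1 read 413 and 464 with anti-CD3, 719 and 697 with B7-2, and 601 and 666 with BTNL2. Eif2b4, the delta subunit, read 276 and 298, then 424 and 405, then 382 and 402. In both genes the anti-CD3 arrays were below all others, and the order of the other groups was B7-2 above BTNL2 without overlap. The log2 change with B7-2 was 0.69 ± 0.10 for Eif2b1 (adjusted p = 0.00337, limma) and 0.53 ± 0.09 for Eif2b4 (adjusted p = 0.00606, limma), and both were called in every alternative fit. With BTNL2 against anti-CD3 they were 0.53 ± 0.10 and 0.45 ± 0.09, calls that were lost without the first anti-CD3 array (0.45, adjusted p = 0.0504, and 0.40, adjusted p = 0.061, limma). Eif2b5, the catalytic epsilon subunit, was dim, at 10.5 and 10.7 with anti-CD3, 12.7 and 15.2 with B7-2, and 16.6 and 14.7 with BTNL2. It was called for BTNL2 against anti-CD3 (0.56 ± 0.12, adjusted p = 0.0104, limma), but not without the first anti-CD3 array (0.55) or the first BTNL2 array (0.47). Eif2b2, the beta subunit, was not called, with log2 changes of 0.09, -0.22 and -0.13 in the order in which the comparisons are given above.

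The kinases that phosphorylate eIF2 did not move together. Eif2ak2, the interferon-inducible kinase PKR that senses double-stranded RNA, read 164 and 172 with anti-CD3, 176 and 167 with B7-2, and 228 and 234 with BTNL2. Only the BTNL2 arrays were high, and the anti-CD3 and B7-2 arrays overlapped. The log2 change for BTNL2 was 0.43 ± 0.09 against B7-2 (SE, n = 2; adjusted p = 0.0133, limma) and 0.46 ± 0.09 against anti-CD3 (adjusted p = 0.00657, limma). The first was not called without the second B7-2 array (0.40) or without either BTNL2 array (0.45 and 0.42), and the second was called in every alternative. The sum of the CD8 T and NK cell markers was highest on the same arrays. The part of these markers in this result was not tested.

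Eif2ak4, the kinase GCN2 that senses uncharged tRNA, read 130 and 143 with anti-CD3, 147 and 165 with B7-2, and 99.6 and 113 with BTNL2. The BTNL2 arrays were the lowest, and the log2 change against B7-2 was -0.55 ± 0.11 (adjusted p = 0.0144, limma). That call was lost without the second B7-2 array (-0.47) or the first BTNL2 array (-0.46). Against anti-CD3 the change was -0.36 ± 0.11 and missed the threshold (adjusted p = 0.0502, limma). Eif2ak3, the endoplasmic reticulum kinase PERK, read 72.5 and 60.5 with anti-CD3, 53.7 and 53.6 with B7-2, and 72.9 and 62.3 with BTNL2, and was called in no comparison, though a probe set of it near background (mean 8.51) was called lower with B7-2 when tested alone (-0.43, adjusted p = 0.0488, limma). Eif2ak1, the haem-regulated kinase, read 648 and 622.5 with anti-CD3, 516 and 527 with B7-2, and 614 and 592 with BTNL2. Its fall with B7-2 was just past the threshold (-0.29 ± 0.09, adjusted p = 0.0494, limma) and was lost when any 1 of the 4 arrays compared was left out (-0.32 to -0.26) and in 5 of the other alternatives.

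Of the 6 genes for scanning, start codon choice and subunit joining, 4 rose with B7-2, beside 11.2% of all genes. All 6 had a mean log2 intensity of 10 to 12 or of 6 to 10, where 20.8% and 21% of genes were called higher. The count is too small to set apart. Eif1a, which with eIF1 keeps the ribosome scanning, read 1617 and 1482 with anti-CD3, 2174 and 2380 with B7-2, and 1934 and 2024.5 with BTNL2. Eif6, which keeps the ribosomal subunits apart, read 1652 and 1715, then 2340 and 2248, then 2213 and 2149. For both, the anti-CD3 arrays lay below the rest and the B7-2 arrays above the BTNL2 arrays. The log2 change with B7-2 was 0.56 ± 0.10 for Eif1a (adjusted p = 0.0065, limma), called in every alternative, and 0.45 ± 0.09 for Eif6 (adjusted p = 0.00941, limma), not called without the first anti-CD3 array or the first B7-2 array (0.42 each). Eif1ad, an eIF1A-like protein, and Eif1ax rose by 0.40 ± 0.10 and 0.34 ± 0.09, calls that were lost whichever of the 4 arrays was left out (0.33 to 0.47 and 0.27 to 0.40). The call of Eif1ax was also lost after quantile normalization was applied again and with the replicate number as a block. Against anti-CD3, BTNL2 gave 0.35 for Eif1a, 0.37 for Eif6, 0.38 for Eif1ad and -0.32 for Eif1b, a close relative of eIF1. Leaving out any 1 of those 4 arrays ended the calls of Eif1a, Eif1ad and Eif1b (0.29 to 0.42, 0.30 to 0.45 and -0.35 to -0.29), and for Eif6 only the second BTNL2 array could be left out. The calls of Eif1a and Eif1b were also lost with the replicate number as a block.

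Eif5, which makes eIF2 hydrolyse its GTP at the start codon, differed between its probe sets. The probe set used for it, the brightest of 5 (mean 3121), read 2847 and 2870 with anti-CD3, 3224 and 3217 with B7-2, and 3343 and 3227 with BTNL2, and its rise of 0.17 ± 0.08 with B7-2 was not called (adjusted p = 0.194, limma). The other 4 probe sets, with means of 274 to 1059, were all called higher with B7-2, by 0.47, 0.56, 0.80 and 0.65 on the log2 scale, when each probe set was tested alone. The brightest of these, at a mean of 1059, read 718 and 629 with anti-CD3, 1213 and 1126 with B7-2, and 1336 and 1335 with BTNL2. The dimmest went back down with BTNL2, from 352 and 363 with B7-2 to 244 and 229, a log2 change of -0.60 against B7-2 (adjusted p = 0.00616, limma, each probe set tested alone). The other 4 gave 0.03 to 0.19 there and were not called.

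**Figure D3:**
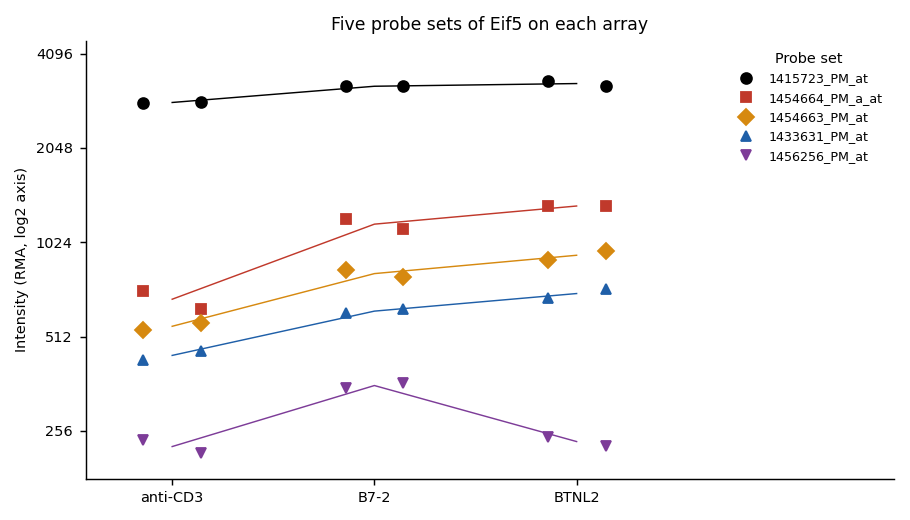
Intensity of the 5 probe sets of Eif5 on each array (log2 axis), with lines joining the group means. The 4 dimmer sets rise from anti-CD3 to B7-2 by 0.47 to 0.80 on the log2 scale and the brightest by 0.17, and the dimmest set alone falls with BTNL2, to 244 and 229.

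Of the 108 probe sets tested one by one, 30 were higher and 2 lower with B7-2, 4 higher and 5 lower with BTNL2 against B7-2, and 28 higher and 4 lower with BTNL2 against anti-CD3. That is 27.8% and 1.85%, 3.70% and 4.63%, and 25.9% and 3.70%. Of all 28898 probe sets, 21.4% were called with B7-2 (10.7% higher, 10.7% lower), 17.7% with BTNL2 against B7-2 (8.48% and 9.18%), and 27.3% with BTNL2 against anti-CD3 (13.9% and 13.4%). No factor had probe sets called in opposite directions in any comparison. At least 1 probe set was called for 22, 9 and 24 of the 52 factors (42.3%, 17.3% and 46.2%), beside 27.4%, 22.9% and 33.9% of all genes. With the probe sets of a gene averaged, 18 factors were called with B7-2, all higher, 4 with BTNL2 against B7-2, and 22 with BTNL2 against anti-CD3 (17 higher, 5 lower), beside 4068, 3446 and 5137 of the 17097 genes. Averaging the probe sets of a gene ended the B7-2 calls of Eif4e3 (-0.26), Eif2ak1 (-0.18), Eif4g2 (0.23) and Eif4g3 (0.23). It also ended the call of Eif4e3 for BTNL2 against B7-2 (0.36) and those of Eif1a (0.26) and Eif6 (0.27) for BTNL2 against anti-CD3.

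The eIF3 scaffold holds the small subunit together with the other factors. Of 10 subunit genes, Eif3b alone was called with B7-2, beside 24.5% of all genes, and none was called for BTNL2 against B7-2, beside 20.4%. Of the 10, 5 (Eif3e, Eif3f, Eif3h, Eif3i and Eif3k) had a mean log2 intensity of 12 or more, a class in which 7.45% and 4.26% of genes were called. Eif3b read 898 and 858 with anti-CD3, 1290 and 1253 with B7-2, and 1304.5 and 1258 with BTNL2. The anti-CD3 arrays were the lowest and the other groups overlapped, and the log2 change was 0.54 ± 0.09 with B7-2 (SE, n = 2; adjusted p = 0.00465, limma) and 0.55 ± 0.09 with BTNL2 (adjusted p = 0.00287, limma), both called in every alternative. Eif3f read 5135 and 5191 with anti-CD3, 4766 and 4636 with B7-2, and 3809 and 3924 with BTNL2. Its arrays stepped down without overlap, and the fall from anti-CD3 to BTNL2 was called (-0.42 ± 0.08, adjusted p = 0.00837, limma) except when its probe sets were averaged (-0.26, adjusted p = 0.0502, limma). Its second probe set gave -0.10. Eif3c, a core subunit, was not called on the probe set used (0.18 with B7-2), while its second probe set, at a mean of 799, was called higher (0.81, adjusted p = 0.00409, limma, each probe set tested alone). The other 7, Eif3d, Eif3e, Eif3h, Eif3i, Eif3k, Eif3l and Eif3m, were called in no comparison on the probe set used. The second, dim probe set of Eif3d, at a mean of 14.7, was called higher with B7-2 (0.88, adjusted p = 0.00847, limma) and with BTNL2 against anti-CD3 (0.59, adjusted p = 0.0333, limma) when tested alone.

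Of 8 genes grouped here under elongation, Eef1e1 alone was called on the probe set used. Eef1e1 is the auxiliary protein of the aminoacyl-tRNA synthetase complex named above, and none of the elongation factors grouped with it was called. Eef1e1 was called with B7-2, beside 24.5% of all genes, and with BTNL2 against anti-CD3, beside 30.4%. All but the dim Eef1a2 and Eef1e1 itself had a mean log2 intensity of 12 or more. In that class 7.45% of genes were called with B7-2, 4.26% with BTNL2 against B7-2 and 12.8% with BTNL2 against anti-CD3. Eef1a1, which brings aminoacyl-tRNA to the ribosome, read 8593 and 8467 with anti-CD3, 8483 and 8396 with B7-2, and 8332 and 8029 with BTNL2. The BTNL2 arrays were the lowest, but the log2 change against B7-2 was -0.05 with a 95% interval of -0.24 to 0.15. Eef2, which moves the ribosome by a codon, read 5251 and 5069 with anti-CD3, 5068 and 5000 with B7-2, and 4206 and 4388 with BTNL2. The BTNL2 arrays were again the lowest, at -0.23 ± 0.09 against B7-2 (adjusted p = 0.11, limma) and -0.26 ± 0.09 against anti-CD3 (adjusted p = 0.0544, limma), neither called. When the variance prior was let vary with intensity, both passed (adjusted p = 0.000735 and 0.000126, limma), within ranges over the alternatives of 0.000735 to 0.304 and 0.000126 to 0.205. Eif5a, which helps the ribosome through difficult peptide bonds, read 5480 and 5504 with anti-CD3, 5663 and 5780 with B7-2, and 6139 and 5704 with BTNL2, and was not called, while its second probe set, at a mean of 1186, was called higher with B7-2 (0.56, adjusted p = 0.00513, limma) and with BTNL2 against anti-CD3 (0.62, adjusted p = 0.00211, limma) when tested alone. Eef1b2, Eef1d and Eef1g, subunits of the eEF1B exchange factor, were not called either, with log2 changes of -0.11 to 0.16, and Eef1a2, the form known from muscle and neurons, read 16.1 to 18.5.

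Eef1e1 read 179 and 153 with anti-CD3, 348 and 407 with B7-2, and 355 and 390 with BTNL2. The anti-CD3 arrays were far below the rest, and the B7-2 and BTNL2 arrays overlapped. The log2 change was 1.18 ± 0.12 with B7-2 (SE, n = 2; adjusted p = 0.000969, limma) and 1.17 ± 0.12 with BTNL2 (adjusted p = 0.000539, limma), both called in every alternative, and -0.01 between them, with a 95% interval of -0.31 to 0.28. Eef1akmt1, which methylates eEF1A, read 678 and 578, then 783 and 910, then 965 and 967. It rose by 0.43 ± 0.12 with B7-2 (adjusted p = 0.0364, limma). That call was lost without the second anti-CD3 array (0.32) or the second B7-2 array (0.32). It was also lost with only the 4 arrays compared and with the replicate number as a block. Eef1akmt1 was 0.63 ± 0.12 higher with BTNL2 than with anti-CD3 (adjusted p = 0.00635, limma), which held in every alternative. Eef1aknmt, another methyltransferase of eEF1A, rose with B7-2 by 0.37 ± 0.09 (adjusted p = 0.0251, limma), a call lost with any 1 of the 4 arrays left out (0.32 to 0.42). Eef2k, the kinase that inhibits eEF2, read 435 and 407 with anti-CD3, 407 and 460 with B7-2, and 471 and 489 with BTNL2, and neither it nor Eef1akmt2 was called on the probe set used. A dim probe set of Eef2k, at a mean of 16.8, was called higher with BTNL2 against both other groups when tested alone (0.43 and 0.61).

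The share of factors called differed with signal, as it did for all genes. Of 14 factors with a mean log2 intensity of 12 or more, none was called with B7-2, none with BTNL2 against B7-2 and 2 with BTNL2 against anti-CD3, beside 7.45%, 4.26% and 12.8% of the 188 genes of that brightness. Of 16 with a mean of 10 to 12, 7, 0 and 4 were called, beside 34.3%, 23.0% and 45.6% of genes, and of 17 with a mean of 6 to 10, 9, 4 and 8 were called, beside 43.7%, 33.5% and 51.4%. Of the 5 dimmest factors, with a mean under 6, 0, 1 (Eif4e) and 1 (Eif2b5) were called, beside 11.2%, 11.9% and 15.2% of genes.

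**Figure D4:**
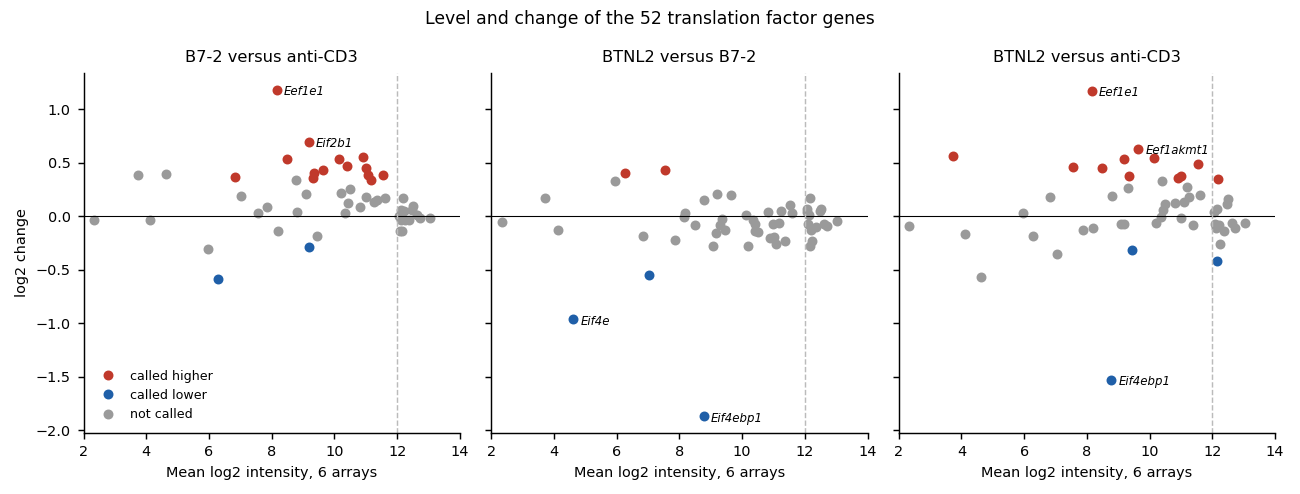
Mean log2 intensity of each factor against its log2 change, in the 3 comparisons, with called factors in red (higher) or blue (lower) and a dashed line at 12. The 14 factors at 12 or more lie close to 0, with none called in the first and second comparisons and 2 in the third.

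To see what the factors share in sequence, promoters from 250 bases before to 50 bases after the start site were read from RefSeq (GRCm38.p6), which gave an entry for 41 of the 52 factors. No entry was found for Eef1akmt1, Eef1d, Eef1g, Eif1a, Eif3e, Eif3h, Eif3i, Eif4e3, Eif4ebp1, Eif4g2 and Eif6. The E-box letters CACGTG read the same on both strands and are a known binding motif of Myc and related factors. They were present for 10 of the 41 (24.4%), beside 8.91% of 17492 protein-coding genes. Counted by promoter window, they were in 12 of the 53 windows of the factors, beside 7.15% of all 32851 windows. The 10 factors were Eef1aknmt, Eef2, Eef2k, Eif1b, Eif3f, Eif3k, Eif4a1, Eif4e, Eif4h and Eif5a. Stretches around the motif are shown for 4 of these 10, Eef2, Eif3f, Eif4a1 and Eif4e, and for Eif2ak2. They run 5′ to 3′ on the strand of the gene with the motif in capitals. The Eef2 stretch is chr10:81176548-81176630 (plus strand), that of Eif3f chr7:108934307-108934392 (plus strand), that of Eif4a1 chr11:69672567-69672652 (minus strand), that of Eif4e chr3:138527164-138527249 (plus strand) and that of Eif2ak2 chr17:78882535-78882564 (minus strand).
Eef2: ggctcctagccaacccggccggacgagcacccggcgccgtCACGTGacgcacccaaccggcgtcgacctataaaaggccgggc
Eif3f: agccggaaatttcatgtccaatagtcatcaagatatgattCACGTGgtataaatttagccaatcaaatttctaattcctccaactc
Eif4a1: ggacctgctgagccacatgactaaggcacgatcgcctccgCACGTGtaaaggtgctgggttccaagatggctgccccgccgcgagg
Eif4e: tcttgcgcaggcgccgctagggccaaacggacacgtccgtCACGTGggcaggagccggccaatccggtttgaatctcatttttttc
Eif2ak2: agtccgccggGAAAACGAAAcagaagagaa
The CACGTG letters begin 43 bases before the start in Eef2, 68 in Eif3f, 189 in Eif4a1 and 64 in Eif4e, where a second copy begins 228 bases before it. These 4 genes did not move alike: Eif3f was lower and Eif4a1 higher with BTNL2 than with anti-CD3, Eif4e was lower with BTNL2 than with B7-2, and Eef2 was called in no comparison. Of the rest with the motif, Eef1aknmt was called higher with B7-2 and Eif1b lower with BTNL2 against anti-CD3. Eef2k, Eif3k, Eif4h and Eif5a were called in no comparison on the probe set used.

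In Eif2ak2 the capitals mark a pair of GAAA with any 2 bases between them, letters of the interferon-stimulated response type (searched on both strands, with no overlap with the other motifs), at 19 to 28 bases after the start. They were found for 2 of 41 factors, Eif2ak2 and Eif2s3x (4.88%), beside 3.94% of protein-coding genes. TGATGNAA, letters of the type bound by Atf4 with a partner, was found on either strand for Eef2k and Eif2s3x (4.88%), beside 4.13%. A match describes letters only and says nothing on binding.

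Other genes of translation, in a list of 41 chosen by role of which 36 were measured, were counted in the same fit, and their difference from the factors was not tested. With B7-2, 18 were higher and 3 lower (58.3%, beside 24.5% of all genes). Gfm1, a mitochondrial elongation factor, changed the most (2.06-fold with B7-2). It read 324 and 334 with anti-CD3, 668 and 689 with B7-2, and 626 and 643 with BTNL2. Pabpc4, a poly(A)-binding protein (1.81-fold), and Etf1, the release factor eRF1 (1.69-fold), were next. With BTNL2 against B7-2, 2 were higher and 9 lower (30.6%, beside 20.4% of all genes). Pdcd4, an inhibitor of the eIF4A helicase, read 3950 and 3796 with anti-CD3, 2495 and 2597 with B7-2, and 4339 and 3930 with BTNL2, a rise of 0.70 ± 0.09 over B7-2 (adjusted p = 0.00223, limma). Ppp1r15a, which recruits the phosphatase of eIF2, fell by 0.69 (adjusted p = 0.00631, limma), and Paip1, which joins poly(A)-binding protein to eIF4A, rose by 0.68 (adjusted p = 0.00879, limma). With BTNL2 against anti-CD3, 13 were higher and 3 lower (44.4%, beside 30.4% of all genes). Among them were Gfm1 (0.95), Etf1 (0.79) and Paip2, an inhibitor of poly(A)-binding protein (-0.84). Fewer of these genes, and fewer of all genes, were called without 1 array in each of the 3 comparisons.

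Other groups of the translation machinery differed in how many were called. Of 17 cytosolic aminoacyl-tRNA synthetase genes, which charge tRNA with amino acids, 14 were higher and none lower with B7-2 (median log2 change 0.55), and none was higher and 8 lower with BTNL2 against B7-2 (-0.34). Of 63 cytosolic ribosomal protein genes, 2 were higher with B7-2 and 2 lower with BTNL2 against B7-2, and of 73 mitochondrial ribosomal protein genes, 25 were higher with B7-2 and 1 higher and 3 lower with BTNL2 against B7-2. The translation factors, at 30.8% and 9.62% called, lay between the synthetases and the cytosolic ribosomal proteins in both comparisons. The mitochondrial ribosomal proteins, at 34.2% and 5.48%, lay above the factors with B7-2 and below them with BTNL2 against B7-2. Over all genes the shares were 24.5% and 20.4%. The difference between these groups was not tested, nor was the part of signal level in it.

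**Figure D5:**
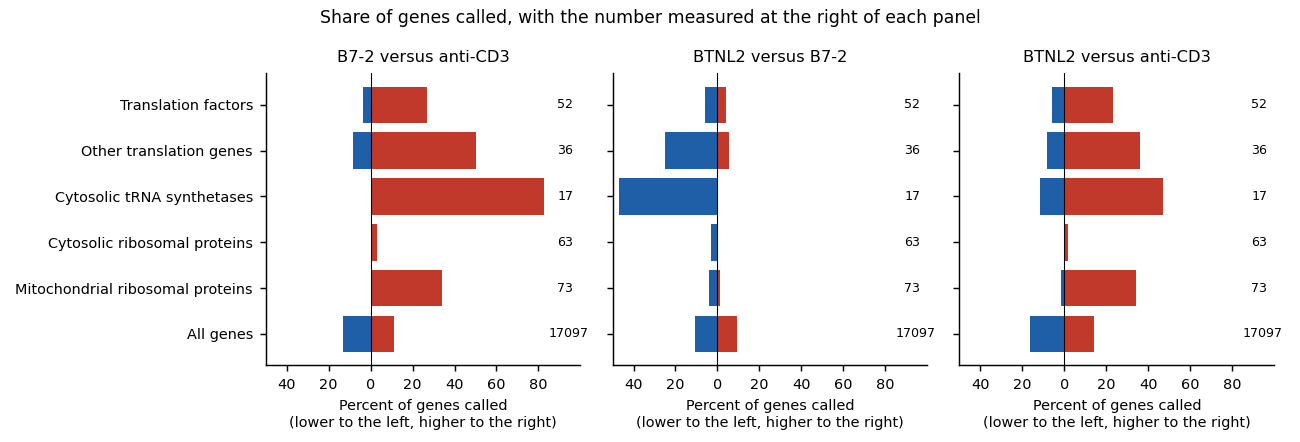
Share of genes called higher or lower in the 3 comparisons, for the translation factors, the other groups of the translation machinery and all genes. The translation factors stand at 30.8%, 9.62% and 28.8% called, all genes at 24.5%, 20.4% and 30.4%.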

How the data were processed

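RNA of the 6 cultures (50 ng each) was amplified by the NuGen Ovation method and biotin-labelled, per the labels' protocols, with 1 array a culture. The values the authors deposited are linear intensities per probe set, and RMA is named in the submitters' processing notes. Its version, software and chip definition were not given in the sources used here. RMA equalises the distributions of arrays and so hides any shift shared by most transcripts, and the number of arrays limits the precision.

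Of 45141 probe sets, 104 were controls, 28898 had 1 gene symbol, 551 had several and 15588 are unnamed here. Symbols were updated through Entrez identifiers for 28689, with the RefSeq table of GRCm38.p6 used for names. Intensities were log2 transformed, 17097 genes were fitted with limma 3.58.1 in R 4.3.3 (3 residual and 4.02 prior degrees of freedom, no block), and p-values were adjusted over all genes of a comparison. The fit was tested on simulated data. Calls are at an adjusted p under 0.05, and fold changes come from log2 differences.

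The factors and lists were chosen with earlier results of these data known. Values on every array are given for the 8 factors with the largest change among those called without overlap, in each comparison, and for factors followed whatever they did; of these, Eif4g1, Eif2s1 and Eif3a are not analysed here. Other factors, probe sets and markers named were chosen after their values were seen. Alternatives were another variance prior, fewer arrays, a filter on dim genes, rescaling, another choice of probe set, a replicate block and leaving out each array.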

Additional observations from a re-analysis of the deposited data

How the results depend on the processing

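With 2 arrays a group, leaving out an array lowered the counts of calls: 7 to 8 factors in place of 16 were called for B7-2 against anti-CD3, 1 to 4 in place of 5 for BTNL2 against B7-2, and 7 to 12 in place of 15 for BTNL2 against anti-CD3. The numbers of all genes called were then 2454 to 2722, 2142 to 2808 and 3726 to 4250, and of other translation genes 12 to 14, 4 to 5 and 10 to 13. An intensity trend in the variance prior raised the factors called to 25, 15 and 26, and all genes called to 5128, 4412 and 5927 from 4190, 3482 and 5197. Testing each probe set alone gave 9 for BTNL2 against B7-2 and 24 for BTNL2 against anti-CD3. Leaving out dim genes gave 8 of 51 factors for BTNL2 against B7-2 (15.7%, beside 32.4% of the genes kept). The factors then also stood below the genes kept with B7-2 (33.3% beside 38.8%). The same held for BTNL2 against anti-CD3 (39.2% beside 45.7%). The cause was not tested. In all, 89 of 117 counts moved by at most 1.5 times. Of the factors called, 5 of 16, 1 of 5 and 6 of 15 were called in every alternative fit. How many calls over all genes held in every fit was not counted. With the replicate number as a block, 13, 4 and 15 factors were called, beside 3765, 3160 and 4827 of the 17097 genes. Deviations of same-numbered arrays correlated at -0.0641, -0.001 and -0.0272, so no shared effect of the number was seen. This cannot tell whether same-numbered cultures were paired. Over all 52 factors and 3 comparisons, 26 of 156 changes had both signs among the alternatives, none of them called in any. Of 813 values of the factors named by the rule, 16 changed sign: under leaving out an array, B7-2 against anti-CD3 gave Eif4ebp2 -0.002 to 0.061, Eif2ak2 -0.012 to 0.065, Eef2k -0.045 to 0.129 and Eif2s3y -0.099 to 0.026, BTNL2 against B7-2 gave Eif5a -0.004 to 0.102 and Eif2s3y -0.124 to 0.003, and BTNL2 against anti-CD3 gave Eif4ebp2 -0.038 to 0.025 and Eif2ak3 -0.105 to 0.156. Under rescaling, Eif4ebp2 gave -0.006 and Eef1a1 0.001 and 0.003 for B7-2 against anti-CD3, and Eif4ebp2 gave 0.001, or 0.008 with its probe sets averaged, for BTNL2 against anti-CD3. Dim factors such as Eif4e, Eif2b5 and Eif2s3y lie near background, so their fold changes are the least certain.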
